A study of Rattus norvegicus with 6 samples.

Results

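Class IIa histone deacetylases and the MEF2 transcription factors were followed in synovial fibroblast-like cells of the rat. The group was named as 7 genes, the deacetylases Hdac4, Hdac5, Hdac7 and LOC687001 and the factors Mef2a, Mef2c and Mef2d. LOC687001 is the symbol under which the deposited table lists Hdac9, as the transcript NM_001200045 is named Hdac9 in the RefSeq gene table of build GRCr8. The members were found by symbol among 16499 symbols, with the most abundant row taken for each, and 3 of the 7 had a row: LOC687001, Hdac5 and Mef2d. Hdac4, Hdac7, Mef2a and Mef2c were not analysed here. The group was put together because LOC687001 was lower in one serum than in another, so that difference is given below as a description with no test.

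The cells came from the synovium of female Wistar rats with collagen-induced arthritis and were divided over 3 sera, which gave 6 libraries of poly(A)-selected RNA. The labels mark the libraries RA1 or RA2, once each per serum, which is read here as 2 sources of cells; the labels do not say whether a source is 1 rat. The medium contained fetal bovine serum (FBS), serum of rats left without stimulation (MS-), or serum of rats given 18 days of needle stimulation, named acupuncture in the labels (MS+). The labels name no other treatment or allele, and the replicates are the sources RA1 and RA2. By the methods of the study, MS- serum was drawn before therapy began and MS+ serum at day 18. Stimulation and the day of sampling therefore cannot be told apart in MS+ against MS-. How many animals donated each serum was not given in the sources used here. One label of the MS- libraries calls the animals healthy and others call them arthritic, and the study is not uniform on the state of these donors.

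Class IIa deacetylases have little catalytic activity of their own. They sit on DNA through MEF2 factors and bring corepressor complexes with Hdac3, which holds MEF2 target genes down. Kinases of the CaMK, protein kinase D and salt-inducible families phosphorylate them, 14-3-3 proteins then bind them and they leave the nucleus, and MEF2 passes to coactivators. Hdac9, which also has a short form without the catalytic domain (MITR), is itself a known MEF2 target in muscle. In synovial fibroblasts, class IIa members have been studied as regulators of inflammatory genes.

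The libraries held 5463316 to 5991889 reads on annotated transcripts, and values are reads per 1000000 reads of the library (CPM), scaled by the authors. One read was worth less than 1 CPM, with 3 reads at 0.491 to 0.551 CPM. A marker was counted as read with 3 reads or more in at least 1 library. By this count all 13 fibroblast markers were read, with a summed level of 62858 to 88071 CPM, but Dcn was at 0 in 4 of the 6 libraries and at 5 reads at most, and Lum was at 0 to 5 reads. Of 9 macrophage markers 3 were read, at 13.8 to 20.5 CPM in sum, with Ptprc, Cd163, Emr1, Lyz2, Aif1 and Itgam at 0. Endothelial and lymphocyte markers summed to at most 1.47 and 0.551 CPM, and Cdh5, Tie1 and Cd3e were at 0. Of 7 smooth muscle markers 5 were read, at 9325 to 11300 CPM.

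The 3 rows lie apart in the genome, and no other row overlapped them. In rn4, the build of the deposited table, LOC687001 (NM_001200045) spans chromosome 6 from 52696733 to 53283737 on the minus strand, Hdac5 (NM_053450) chromosome 10 from 91266512 to 91277688 on the minus strand, and Mef2d (NM_030860) chromosome 2 from 180221078 to 180246917 on the plus strand. The spans cover whole transcripts without exon limits or lengths, so levels are compared between sera and not between genes. The 250 bases before the start used for each gene are shown because MEF2 sites near class IIa genes are part of the known loop between both families. They are RefSeq sequences of GRCr8, from chr6:57052572-57052821 on the minus strand for Hdac9, chr10:87688055-87688304 on the minus strand for Hdac5 and chr2:175904082-175904331 on the plus strand for Mef2d. Capitals mark a match to the MEF2 motif, searched as CTA, any 4 bases and TAG.
Hdac9: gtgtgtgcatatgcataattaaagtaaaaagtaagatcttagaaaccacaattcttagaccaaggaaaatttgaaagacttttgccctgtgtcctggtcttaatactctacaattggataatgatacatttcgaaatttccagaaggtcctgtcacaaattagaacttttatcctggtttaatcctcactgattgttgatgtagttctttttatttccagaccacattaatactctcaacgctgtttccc
Hdac5: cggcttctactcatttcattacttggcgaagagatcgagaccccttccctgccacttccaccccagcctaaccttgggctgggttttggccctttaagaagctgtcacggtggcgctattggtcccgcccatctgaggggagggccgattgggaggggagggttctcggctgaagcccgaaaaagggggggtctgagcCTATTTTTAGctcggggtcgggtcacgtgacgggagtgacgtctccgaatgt
Mef2d: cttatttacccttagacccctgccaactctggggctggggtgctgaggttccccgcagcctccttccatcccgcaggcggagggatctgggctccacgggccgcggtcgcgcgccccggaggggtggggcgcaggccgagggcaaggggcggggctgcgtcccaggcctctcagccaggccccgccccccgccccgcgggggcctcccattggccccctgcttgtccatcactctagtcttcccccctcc

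The Hdac5 window held 1 match to the MEF2 motif, beginning at position -52 counted back from the start used, and the Hdac9 and Mef2d windows held none. Windows of this length held the motif on either strand before 3.41% of 33469 gene starts. The AP-1 motif TGANTCA and the CRE motif TGACGTCA, which were also searched on both strands, were in none of the 3 windows and in 6.34% and 1.59% of all windows. The Hdac9 window was poor in G and C, at 34.4% with 2 CpG pairs, whereas those of Hdac5 and Mef2d were at 58.8% and 73.2% with 15 and 18 CpG pairs, against a median of 51.2% and 5 over all windows. The start used for Hdac9 lies 299083 bases inside the outermost end of the gene in GRCr8, so transcripts of this gene may begin elsewhere, and which start the counted reads came from is not known here. For Hdac5 the start used lies 24 bases inside the outermost end, so part of its window is within the annotated gene.

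LOC687001 was read in every library, at a low level, and was lowest in MS+. With FBS it had 24 reads in RA1 and 59 in RA2, which are 3.93 and 9.78 CPM. With MS- it had 34 and 52 reads, 6.22 and 9.40 CPM. With MS+ it had 8 and 12 reads, 1.44 and 2.20 CPM. Both MS+ libraries were thus below all 4 others, and RA2 was above RA1 in each serum. Over all tested features, 23.1% had MS+ libraries below MS- libraries without overlap. The exact Poisson 95% intervals, which cover counting error only, were 0.622 to 2.84 and 1.14 to 3.85 CPM in MS+, against 4.31 to 8.69 and 7.02 to 12.3 CPM in MS- and 2.52 to 5.85 and 7.45 to 12.6 CPM in FBS.

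Group means were 7.81 ± 2.25 CPM in MS-, 6.86 ± 4.14 CPM in FBS and 1.82 ± 0.54 CPM in MS+ (SD, n = 2 sources of cells). MS- and FBS, neighbours in this order, did not differ beyond the spread between sources, as their libraries overlapped. Against MS-, the contrast that chose the gene, MS+ was at 23.2% of the level in RA1 and 23.4% in RA2, with a log2 fold change of -1.63 (SE 0.40) on the log2(CPM + 1) scale, which understates changes of genes at a low level. On the scale of the reads, edgeR gave -2.09. The rule of the study asks for an unadjusted p under 0.05 in limma, at least a 2-fold difference, and 1 CPM or more on average. Here the fold was taken on the log2(CPM + 1) scale, whereas the study took it from limma-voom. That makes the rule stricter for genes at a low level. In this contrast the rule called 39 features lower, 0.397% of the 9820 tested. By size of fall LOC687001 was number 2 of them. It stands there by the difference for which it was chosen, so its place is a description and no support. Egr2, at -1.73, stood just before it and Prima1, at -1.61, just after it.

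**Figure D1:**
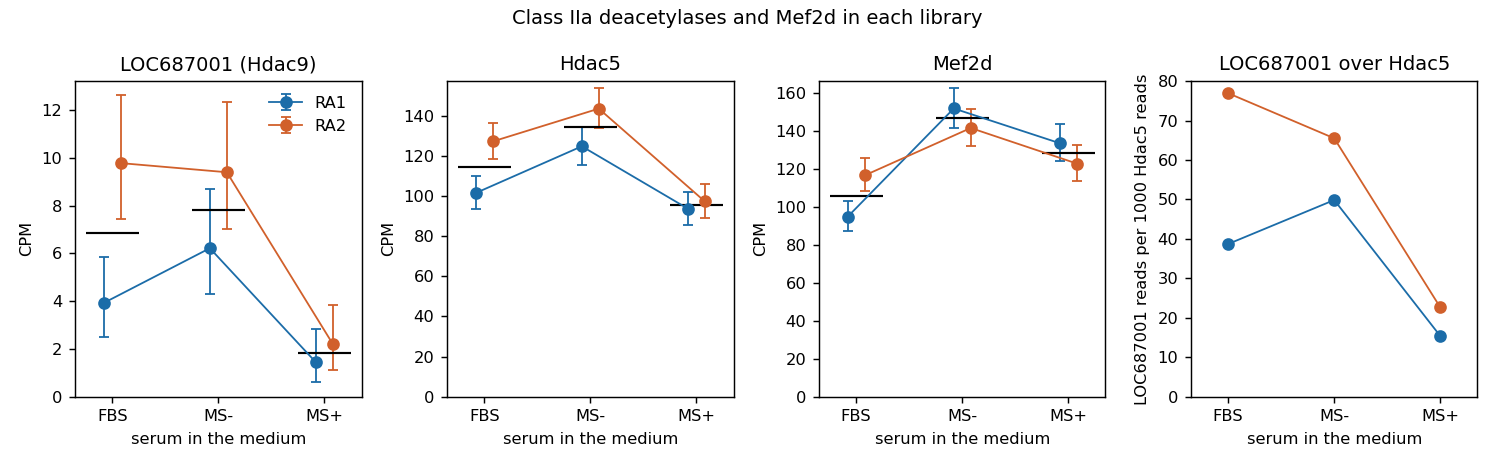
CPM of LOC687001 (Hdac9), Hdac5 and Mef2d in each of the 6 libraries by serum, and in the last panel the reads of LOC687001 per 1000 reads of Hdac5. Points are libraries joined within a source of cells, error bars are exact Poisson 95% intervals and black lines are means of both sources; LOC687001 is lowest in both MS+ libraries (1.44 and 2.20 CPM), and Mef2d is lowest in both FBS libraries (94.9 and 117 CPM).

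Against FBS, MS+ was at 36.7% of the LOC687001 level in RA1 and 22.5% in RA2. The log2 fold change was -1.38 (SE 0.40), which met the rule of the study but not the threshold across all features in limma (adjusted p = 0.0800), and it passed with the source of cells as a block (limma, adjusted p = 0.000637). The comparison shares the MS+ libraries with the one that chose the gene and is not independent of it. The rule of the study called 1 of the 3 members here, against 2.92% of all features called lower. The call by that rule was lost without FBS replicate 2, where the fold change was -0.82, and without MS+ replicate 1, where it was -1.19. MS- against FBS gave 0.25 (SE 0.40, limma adjusted p = 0.780), with 0.55 in RA1 and -0.05 in RA2, and it turned to -0.32 without FBS replicate 1 and to -0.01 without MS- replicate 2. That comparison shares the MS- libraries with the contrast that chose the gene and is not independent of it either. In RNA of whole cultures, fewer cells that express a gene and less RNA per cell cannot be told apart.

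Genes of skeletal muscle fibres moved with LOC687001 in part. Of 11 skeletal muscle markers 9 were read, and their summed level was 1162 and 1286 CPM in FBS, 987 and 1040 CPM in MS-, and 1236 and 1156 CPM in MS+, most of it Acta1. That sum was not lower in MS+, but the adult myosin heavy chain Myh1 was at 24.2 and 271 CPM in FBS, 47.6 and 209 CPM in MS-, and 19.6 and 88.3 CPM in MS+. Like LOC687001, Myh1 was higher in RA2 than in RA1 in each serum, and within each source it was lowest in MS+, at 41.3% and 42.3% of MS-. Myh2 and Myh4, its neighbours in the family, were at 53.2% and 54.1%, and at 31.7% and 51.8%, of MS- in RA1 and RA2. With the source of cells as a block the limma adjusted p-values of this contrast were 0.00220, 0.0220 and 0.00695 for Myh1, Myh2 and Myh4, and without it 0.706, 0.760 and 0.667. Tnnt3, the troponin T of fast fibres, was at 6.71 and 7.30 CPM in FBS, 7.87 and 5.06 CPM in MS-, and 6.67 and 7.71 CPM in MS+, with MS+ against MS- at 0.16 (limma adjusted p = 0.817, and 0.732 with the block). The other markers of this list were near the floor in most libraries, with Mylpf at 0 to 8 reads, Actn3 at 1 to 5, Ckm at 0 to 4, Myog at 0 to 1 and Tnni2 at 0, and Myod1 at 33 reads in 1 FBS library and at most 4 in the others. Reads of these similar myosin genes may be shared, and the part of muscle cells in the LOC687001 difference was not tested.

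Hdac5, which shares the MEF2-binding and export domains of Hdac9, was more highly read and also lowest in MS+. It had 620 and 767 reads with FBS, 682 and 794 with MS-, and 520 and 530 with MS+ in RA1 and RA2. These are 101 and 127 CPM, 125 and 144 CPM, and 93.7 and 97.3 CPM. Both MS+ libraries were below the 4 others, whereas the FBS and MS- libraries overlapped. MS+ was at 75.1% and 67.8% of MS- in RA1 and RA2, a log2 fold change of -0.48 (SE 0.13) that did not pass in limma (adjusted p = 0.199) and passed with the source of cells as a block (SE 0.09, adjusted p = 0.00427).

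Of the tested members in MS+ against MS-, that is Hdac5 and Mef2d, none passed an adjusted p under 0.05 without the block, where 0.0204% of all features did, and Hdac5 alone passed with it, where 4.78% of all features were called lower. Both of these had MS+ libraries below MS- libraries without overlap, as had 23.1% of all features. MS+ against FBS gave -0.25 for Hdac5 (limma adjusted p = 0.279, and 0.0607 with the block), and MS- against FBS gave 0.23 (limma adjusted p = 0.375, and 0.0946 with the block). The ratio of LOC687001 to Hdac5 is a description only, as it holds the LOC687001 reads for which the gene was chosen. Per 1000 Hdac5 reads there were 38.7 and 76.9 LOC687001 reads with FBS, 49.9 and 65.5 with MS-, and 15.4 and 22.6 with MS+, so the ratio was lowest in MS+ in both sources.

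Mef2d, one of the factors that bring class IIa deacetylases to DNA, followed another order and was lowest in FBS. It had 580 and 704 reads with FBS, 831 and 784 with MS-, and 742 and 670 with MS+. These are 94.9 and 117 CPM, 152 and 142 CPM, and 134 and 123 CPM in RA1 and RA2. Both FBS libraries lay below the MS+ libraries, which lay below the MS- libraries, so no pair of sera overlapped. MS- against FBS gave a log2 fold change of 0.48 (SE 0.12), with 0.67 in RA1 and 0.28 in RA2, which did not pass in limma (adjusted p = 0.0852) and passed with the source of cells as a block (adjusted p = 0.00426).

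In MS- against FBS, 4.81% of all features passed without the block and 10.8% were called higher with it, and Mef2d was the only one of the 3 members to pass with it. Mef2d was also the only member whose libraries did not overlap there, against 51.6% of all features. MS+ against FBS gave 0.28 for Mef2d (limma adjusted p = 0.193, and 0.0564 with the block). No member passed an adjusted p under 0.05 without the block in that comparison, against 9.61% of all features. LOC687001, chosen through the same MS+ libraries, alone passed with it, where 13.9% of all features were called lower. All 3 members had MS+ and FBS libraries without overlap, as did 56.7% of all features. MS+ against MS- gave -0.19 for Mef2d (limma adjusted p = 0.532, and 0.274 with the block).

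The genes around this pathway were taken as lists, of which 70 of 98 symbols had enough reads to be tested. None of the 70 passed an adjusted p under 0.05 in MS+ against MS- without the block, 5 passed in MS+ against FBS (3 higher, 2 lower) and 3 in MS- against FBS (2 higher, 1 lower). Over all features 0.0204%, 9.61% and 4.81% passed in these comparisons. Leaving out 1 library lowered the counts among the 70, in MS+ against FBS to 0 without MS+ replicate 1 and to 1 to 3 without any other library, and in MS- against FBS to 0 without FBS replicate 1 or MS- replicate 1 and to 1 or 2 otherwise. In the fit that included the source of cells as a block 13 (5 higher, 8 lower), 28 (9 higher, 19 lower) and 16 (9 higher, 7 lower) passed, next to 10.1%, 28.2% and 20.5% of all features. The rule of the study called 2 of the 70 in each comparison, next to 1.24%, 5.3% and 3.62% of all features. The median log2 fold change of the 70 genes was -0.08, -0.05 and 0.01 in these comparisons, against -0.01, 0.00 and 0.01 over all features.

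**Figure D2:**
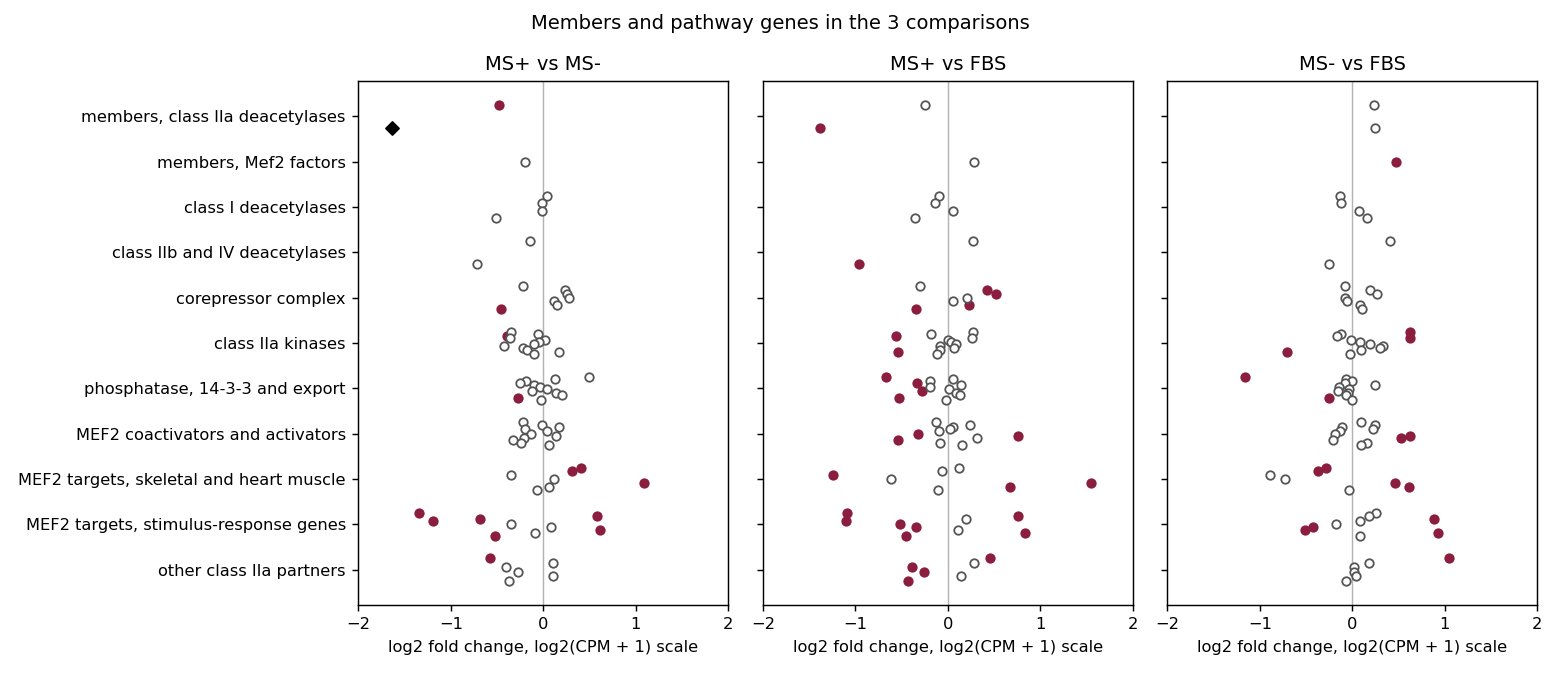
Log2 fold changes, on the log2(CPM + 1) scale, of the members and of the tested pathway genes in the 3 comparisons, with 1 row per list and 1 point per gene. Filled red points passed an adjusted p under 0.05 in limma with the source of cells as a block, open points did not, and the black diamond is LOC687001 in the contrast that chose it, which was not tested; LOC687001 lies furthest to the left in that panel, at -1.63, and Kbtbd10 furthest to the right, at 1.09.

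The class I deacetylases, which carry most histone deacetylase activity, gave no call. None of the 4 tested genes passed in any comparison, with or without the block. Over all features 0.0204% to 9.61% passed without the block, by comparison, and 10.1% to 28.2% with it. Hdac1 was at 63.7 and 67.5 CPM with FBS, 57.1 and 62.0 CPM with MS-, and 55.9 and 67.2 CPM with MS+. Hdac2 was at 75.0 and 81.6 CPM, 71.3 and 72.1 CPM, and 71.2 and 70.8 CPM. MS+ against MS- gave 0.04 (SE 0.12) for Hdac1 and -0.01 (SE 0.10) for Hdac2, both smaller than their errors.

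Of the class IIb and IV enzymes, Hdac10 and Hdac11 were tested. Neither passed without the block, where 0.0204% to 9.61% of all features did, by comparison. Hdac11, the class IV enzyme, was at 3.93 and 1.49 CPM with FBS, 2.56 and 1.45 CPM with MS-, and 1.08 and 0.551 CPM with MS+. It was lowest in MS+ in both sources, as LOC687001 was, and MS+ against FBS gave -0.96 (SE 0.40, limma adjusted p = 0.178, and 0.0199 with the block). Hdac10 was at 11.0 and 15.6 CPM with FBS, 18.3 and 17.2 CPM with MS-, and 15.7 and 16.3 CPM with MS+. For Hdac10 no comparison passed in limma with or without the block.

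The corepressors through which class IIa enzymes act were well read. Of 7 tested genes none passed without the block, where 0.0204% to 9.61% of all features did, by comparison. With the block 3 were higher and 1 lower in MS+ against FBS, where 28.2% of all features passed. In MS+ against MS-, 5 were above and 2 below 0. Of these only Tbl1xr1 passed with the block, at -0.45 (limma adjusted p = 0.383, and 0.0112 with the block), where 4.78% of all features were called lower. Ctbp1, a corepressor that binds the short form of Hdac9, was at 203 and 185 CPM with FBS, 241 and 204 CPM with MS-, and 258 and 263 CPM with MS+. MS+ against FBS gave 0.42 for Ctbp1 (SE 0.11, limma adjusted p = 0.0600, and 0.00184 with the block).

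Among the kinases that drive class IIa enzymes out of the nucleus, 12 genes were tested. None passed without the block, where 0.0204% to 9.61% of all features did, by comparison. In MS+ against MS-, 10 of the 12 had a log2 fold change below 0, as had 5008 of the 9820 features, with a median of -0.14, and 1 passed with the block, where 10.1% of all features did. Camk2d, a calcium-activated kinase, was at 113 and 166 CPM with FBS, 114 and 138 CPM with MS-, and 121 and 121 CPM with MS+. Stk11, also known as LKB1, which activates the salt-inducible kinases, was at 94.5 and 84.6 CPM, 86.5 and 89.3 CPM, and 79.5 and 85.0 CPM. Neither gene passed in limma in any comparison, with or without the block.

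The 14-3-3 proteins, the phosphatase PP2A and the carriers between nucleus and cytoplasm made a list of 12 tested genes. Ywhaq, a 14-3-3 protein, was at 401 and 445 CPM with FBS, 345 and 363 CPM with MS-, and 287 and 298 CPM with MS+. It fell in MS+ against FBS by 0.53 on the log2 scale (SE 0.09, limma adjusted p = 0.0216). Kpna2, an importin that carries cargo into the nucleus, was at 35.7 and 32.7 CPM with FBS, 11.7 and 18.4 CPM with MS-, and 20.4 and 21.8 CPM with MS+. It fell in MS- against FBS by 1.16 on the log2 scale (SE 0.21, limma adjusted p = 0.0309). The more abundant 14-3-3 genes Ywhaz and Ywhae did not pass without the block. Ywhae was at 666 and 653 CPM with FBS, 587 and 594 CPM with MS-, and 542 and 547 CPM with MS+, and passed with the block in MS+ against FBS (-0.28, limma adjusted p = 0.0149). Ywhaz was at 641 to 711 CPM over all 6 libraries.

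Of 11 tested coactivators and activators of MEF2, 1 passed without the block in MS+ against FBS, where 9.61% of all features did. None passed without the block in the other comparisons. Ppp3ca, a catalytic subunit of the phosphatase calcineurin, was at 56.8 and 64.5 CPM with FBS, 53.1 and 51.5 CPM with MS-, and 44.7 and 38.4 CPM with MS+. It fell in MS+ against FBS by 0.54 on the log2 scale (SE 0.12, limma adjusted p = 0.0433), while its regulatory subunit Ppp3r1 gave 0.15 (limma adjusted p = 0.335). Myocd, the coactivator of smooth and heart muscle genes, was at 72.4 and 128 CPM with FBS, 121 and 184 CPM with MS-, and 173 and 156 CPM with MS+. Myocd passed only with the block, both in MS+ against FBS (0.76, limma adjusted p = 0.00175) and in MS- against FBS (0.62, limma adjusted p = 0.00949).

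Muscle genes that MEF2 is known to drive did not move one way. Of 17 such genes 7 were tested, with 5 above and 2 below 0 in MS+ against MS- (4812 and 5008 over all features) and a median of 0.11. Kbtbd10, a kelch protein of muscle sarcomeres, was at 11.6 and 18.1 CPM with FBS, 19.9 and 20.8 CPM with MS-, and 41.8 and 47.4 CPM with MS+. Both MS+ libraries were above the 4 others, while MS+ and FBS libraries did not overlap in 56.7% of all features. Kbtbd10 rose in MS+ against FBS by 1.55 (SE 0.21, limma adjusted p = 0.00921). Against MS- the difference was 1.09 (limma adjusted p = 0.126, and 0.000456 with the block), and Kbtbd10 met the rule of the study in both comparisons.

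The actins of striated muscle were the most abundant genes of this list. Acta1 was at 1113 and 929 CPM with FBS, 912 and 766 CPM with MS-, and 1200 and 1026 CPM with MS+. Actc1 was at 783 and 682 CPM, 601 and 530 CPM, and 749 and 650 CPM. Both were lowest in MS- in each source, and MS+ against MS- gave 0.41 for Acta1 and 0.31 for Actc1 (limma adjusted p = 0.279 and 0.330, and 0.00412 and 0.0209 with the block). The coding sequences of actins are nearly alike, so reads may be split between them.

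Targets of MEF2 that respond to stimuli went in both directions. Of 9 tested genes, 2 were higher and 4 lower in MS+ against MS- with the block, where 10.1% of all features passed. None passed in this comparison without the block, where 0.0204% of all features did. Nr4a1, an orphan nuclear receptor whose promoter class IIa deacetylases are known to occupy, was at 189 and 226 CPM with FBS, 400 and 386 CPM with MS-, and 429 and 317 CPM with MS+. It rose over FBS in both rat sera, by 0.83 in MS+ and by 0.93 in MS- (SE 0.16, limma adjusted p = 0.0257 and 0.0265), comparisons that share the FBS libraries. Between MS+ and MS- the Nr4a1 libraries overlapped, and the fold change was -0.09.

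Fos, a subunit of AP-1, was at 289 and 299 CPM with FBS, 248 and 394 CPM with MS-, and 178 and 104 CPM with MS+. Both MS+ libraries were below the 4 others, while 23.1% of all features had MS+ below MS- without overlap. MS+ against MS- gave -1.19 for Fos (SE 0.29, limma adjusted p = 0.165, and 0.00161 with the block) and MS+ against FBS gave -1.10 (limma adjusted p = 0.0608, and 0.000719 with the block), and it met the rule of the study in both. Bdnf, a growth factor of nerve cells, was at 46.3 and 37.3 CPM with FBS, 54.3 and 41.2 CPM with MS-, and 77.3 and 65.3 CPM with MS+. In contrast to Fos it was highest in MS+ and rose against FBS by 0.76 (SE 0.18, limma adjusted p = 0.0442). Against MS- the Bdnf difference was 0.58 (limma adjusted p = 0.229, and 0.00317 with the block). Egr1, a zinc finger factor induced by growth factors, was at 314 and 455 CPM with FBS, 590 and 826 CPM with MS-, and 477 and 394 CPM with MS+. MS- against FBS gave 0.88 for Egr1 (limma adjusted p = 0.0812, and 0.000284 with the block). MS+ against MS- gave -0.68 for Egr1 (limma adjusted p = 0.243, and 0.00537 with the block).

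Other partners of class IIa enzymes made a list of 6 tested genes. Bcl6, a repressor that recruits them, was at 16.9 and 19.6 CPM with FBS, 34.8 and 42.5 CPM with MS-, and 24.5 and 26.3 CPM with MS+. It rose in MS- against FBS by 1.04 (SE 0.15, limma adjusted p = 0.0159). MS+ against MS- gave -0.58 for Bcl6 (limma adjusted p = 0.187, and 0.0124 with the block). Stat3, a cytokine-activated factor, was at 194 to 250 CPM over the 6 libraries and did not pass in any comparison, with or without the block. Srf, which drives actin genes, was at 211 and 186 CPM with FBS, 207 and 195 CPM with MS-, and 163 and 168 CPM with MS+, and passed only with the block in MS+ against FBS (-0.26, limma adjusted p = 0.0366).

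The genes within 1 Mb of LOC687001 were also read. Of 7 neighbours in rn4, 4 were tested: Twistnb, Twist1, Snx13 and Ahr. Ahr, the aryl hydrocarbon receptor, was at 60.2 and 106 CPM with FBS, 67.0 and 77.9 CPM with MS-, and 44.0 and 27.7 CPM with MS+. Both MS+ libraries were below the 4 others, as for LOC687001. The share of all features in this order was not counted. Against MS- alone, MS+ was lower without overlap in 23.1% of all features. MS+ against MS- gave -1.03 for Ahr (SE 0.30, limma adjusted p = 0.214, and 0.00603 with the block) and MS+ against FBS gave -1.17 (limma adjusted p = 0.0581, and 0.000702 with the block), and it met the rule of the study in both.

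Twist1, a factor of mesenchymal cells whose gene lies next to Hdac9, was at 38.8 and 45.6 CPM with FBS, 33.7 and 47.7 CPM with MS-, and 24.0 and 39.6 CPM with MS+. Its libraries overlapped between all sera, but within each source it was lowest in MS+. MS+ against FBS gave -0.44 for Twist1 (limma adjusted p = 0.331, and 0.0221 with the block). Against MS- the Twist1 difference was -0.37 (limma adjusted p = 0.579, and 0.0914 with the block). Snx13, a sorting nexin between LOC687001 and Ahr, was at 29.8 and 34.7 CPM with FBS, 39.5 and 47.7 CPM with MS-, and 48.8 and 40.7 CPM with MS+. MS+ against MS- gave 0.04 for Snx13 and -0.02 for Twistnb, a subunit of RNA polymerase I, with overlapping libraries. The lower levels in MS+ were therefore not shared by all tested neighbours.

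**Figure D3:**
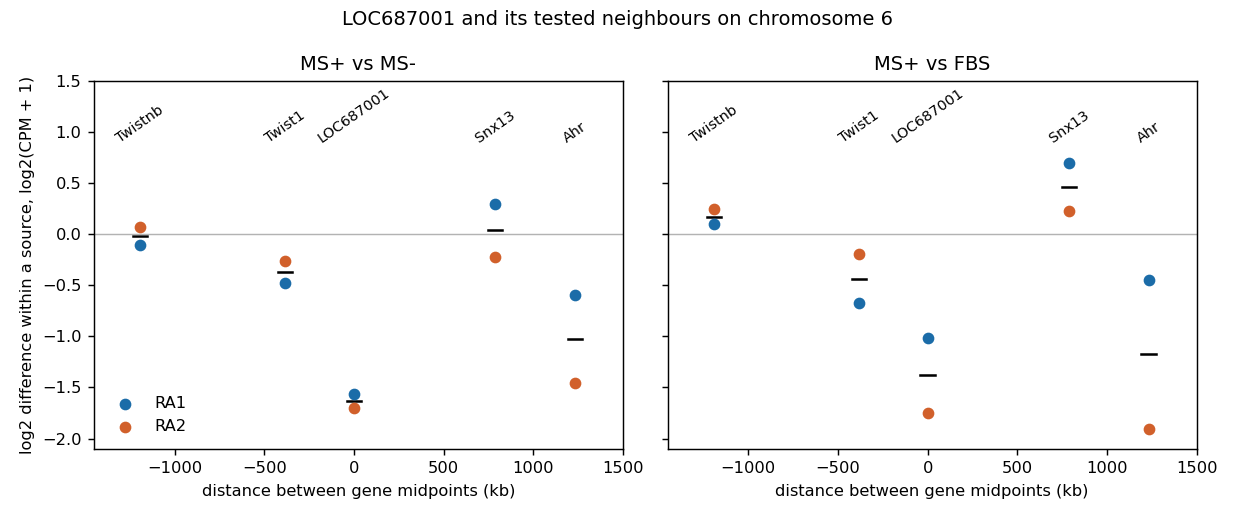
Differences within a source of cells of LOC687001 and its 4 tested neighbours on rat chromosome 6, MS+ against MS- and MS+ against FBS, on the log2(CPM + 1) scale, placed by the distance of their midpoints from that of LOC687001 in kb. Points are the sources RA1 and RA2 and black dashes are the fitted fold changes. LOC687001 (-1.63 and -1.38), Ahr (-1.03 and -1.17) and Twist1 (-0.37 and -0.44) lie below 0 in both sources. Snx13 (0.04 and 0.46), placed between LOC687001 and Ahr on the chromosome, does not.

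The genes whose profile over the 6 libraries came closest to LOC687001 were Pcdh18, Osr1, Zfp192, Gpr75 and RGD1310429, ranked by the Euclidean distance between log2(CPM + 1) values centred on each gene's mean. The distances were 0.421, 0.747, 0.790, 0.841 and 0.871, and Pearson's r with LOC687001 over the 6 libraries was 0.98, 0.93, 0.98, 0.91 and 0.97. The points share 2 sources of cells and 3 sera. Pcdh18, a protocadherin of the cell surface, was at 17.5 and 36.6 CPM with FBS, 19.2 and 28.6 CPM with MS-, and 8.11 and 9.91 CPM with MS+. Osr1, a zinc finger factor of connective tissue, was at 190 and 403 CPM, 186 and 383 CPM, and 94.8 and 171 CPM. Both were higher in RA2 in each serum and lowest in MS+ in each source. That order and the high r follow from choosing the nearest profiles. Of the 9665 symbols ranked, Ahr stood at place 12, Hdac5 at 319, Twist1 at 333 and Mef2d at 3936. Myh1, whose difference between sources was wider, stood at 8129.

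**Figure D4:**
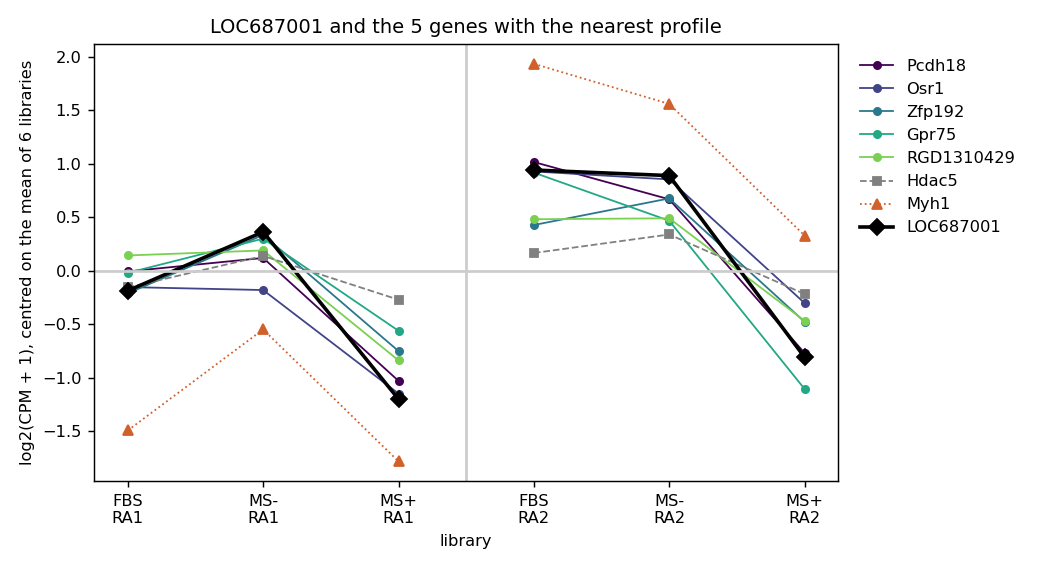
log2(CPM + 1) of LOC687001, of the 5 genes nearest to it, of Hdac5 and of Myh1 in the 6 libraries, each centred on its mean, with the libraries on the horizontal axis grouped by source of cells. LOC687001 and the 5 genes, chosen for the nearest profile, are lowest within each source in MS+. Hdac5 shows the order of LOC687001 in RA1 with a narrower range, and Myh1 a wider difference between sources.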

How the data were processed

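Per the labels and the methods of the study, the authors aligned poly(A) RNA reads to rn4 with Bowtie2 2.1.0, counted them per transcript with HTSeq 0.5.4p3 in its intersection-nonempty mode, and deposited this signal in CPM scaled by the TMM method of edgeR. Strand use was not given in the sources used here. All values were whole reads once divided by the worth of 1 read, which gave the reads printed. The 9820 features with at least 1 CPM in both libraries of a serum were fitted with limma 3.58.1 (R 4.3.3, empirical Bayes with trend, two-sided) on log2(CPM + 1) over all 6 libraries, with Benjamini-Hochberg adjustment over all of them. The threshold was an adjusted p of 0.05. The fit without the block was checked for MS+ against FBS on simulated data that held no difference between sources. The fit with the block was not checked in this way.

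Libraries of the same number share the mark RA1 or RA2 in the labels, which also say that the cultures were divided over the sera, so the numbers were taken to pair the samples by source of cells. Deviations of same-numbered libraries correlated at 0.49 to 0.62 across features. The fit with the source as a block is therefore given beside many of the results it changes, but not all. Replicates of a serum differed well beyond sampling noise, with a chi-square of 14.3 to 15.9 per degree of freedom.

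Named genes were the members, list genes that passed (at most 4 per list), the 2 most abundant of each list, neighbours within 1 Mb and the 5 nearest profiles, of which 1 list gene is not reported here. Members and lists were chosen with earlier results of these data known. Alternatives were edgeR 4.0.16, DESeq2 1.42.0, limma-voom, other scalings, filters and pseudocounts, and leaving out each library.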

Additional observations from a re-analysis of the deposited data

How the results depend on the processing

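With the source of cells as a replicate block, and equally with edgeR and the block, 1 member passed an adjusted p under 0.05 in each comparison where 0 did without it. In limma this was Hdac5 in MS+ against MS-, where LOC687001 was not tested, and Mef2d in MS- against FBS. In MS+ against FBS it was LOC687001, which was chosen through the same MS+ libraries, so that pass is not independent of the choice. For the 70 pathway genes the calls by adjusted p went from 0 to 13 in MS+ against MS- (13 with edgeR and the block, 3 with DESeq2), from 5 to 28 in MS+ against FBS (27 with edgeR and the block, 2 with no filter) and from 3 to 16 in MS- against FBS (15 with edgeR and the block, 1 with no filter). By the rule of the study, which called 2 of them in each comparison, edgeR with the block called 4 in each. Leaving out 1 library at a time, calls by adjusted p ranged from 0 to 3 in MS+ against FBS and from 0 to 2 in MS- against FBS, and calls by the rule of the study from 1 to 3, 2 to 6 and 1 to 7 in the 3 comparisons, and from 0 to 1 for the members in MS+ against FBS. Fewer libraries leave less to estimate the spread from. For other changes the cause was not tested.

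In MS- against FBS, leaving out 1 library turned the sign of LOC687001 (range -0.32 to 0.81), Twist1 (-0.31 to 0.18) and Ahr (-0.55 to 0.26). As a description of the contrast that chose it, LOC687001 in MS+ against MS- was at -1.90 to -1.37 when 1 library was left out. Of the 5 nearest profiles, 0 were shared with a ranking by Pearson's r and 2, Pcdh18 and Osr1, with a pseudocount of 0.1. A composition scaled by transcript length was not run, as lengths were not given in the files used. At 8 to 59 reads, counting error limits LOC687001, and 2 sources of cells limit every comparison.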
